A study of Mus musculus with 93 samples.

Results

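The odorant receptor genes of mouse chromosome 7 that lie outside its class I array were examined across single cells of the olfactory epithelium. Members were all rows of the deposited annotation whose symbol begins with Olfr on chromosome 7 with a gene start below 102000000 or above 105600000 (mm10 coordinates). This rule gave 111 genes (113 rows) of the 1112 Olfr symbols (1175 rows) in the deposited table. The class I array between these bounds held 128 symbols and the other chromosomes held 873. Where a symbol had more than 1 row, the row with the highest FPKM (fragments per kilobase of transcript, scaled to the mapped fragments of the library) was taken.

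The study followed receptor gene expression while olfactory sensory neurons form in C57BL/6 mice. Cells were picked by hand from dissociated olfactory epithelium, and their poly(A) RNA was copied from oligo(dT) primers and amplified by PCR. By their labels, 11 were Progenitor cells, 9 Precursor cells, 27 Early Immature Neurons, 13 Late Immature Neurons and 25 Mature Neurons (below: Early, Late and Mature cells), 85 in all. Of these, 8 have a technical repeat library. No label names an animal, an age or the way a stage was assigned, so each stage is 1 sample, values are those of single cells, and no test between stages was possible. All groups share strain and tissue, and none received a treatment named in the labels.

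Odorant receptors are G protein-coupled receptors that the cilia of sensory neurons expose to inhaled odorants. A mature neuron is known to express a single receptor gene, from a single allele, at a high level. Mammalian receptors fall into class I, related to those of fish, and class II, which holds most of the family. Their genes lie in clusters, and the coding sequence usually sits in a single exon.

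The class named by the rule was checked against sequence. Coding sequences of all 111 members were found by symbol in GENCODE M21 (GRCm38, the same assembly as mm10), and all were annotated there as protein coding. They were 912 to 1026 bases long (median 942). For 98 members the nearest Olfr coding sequence was another member, and for 93 it was a member of the same position cluster. The median identity to the nearest gene was 89.7% (lowest 58.8%, highest 99.0%). For 2 members the sequence went against the label: Olfr503 was 97.1% identical to Olfr658 and Olfr504 was 95.6% identical to Olfr657, both genes of the class I array. Their nearest members were each other, at 57.3%. Both were listed at an FPKM of 0 in every first library, so no expression value below rests on them. They stay in the counts and shares over the 111 members.

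Split at gaps above 1 Mb between gene starts, the members formed 6 clusters. The first held 8 genes (7:6439836 to 6570919, Olfr1344 to Olfr1350) and the second held Olfr291 and Olfr290 (7:84853555 to 84916728). The third held 15 genes (7:86268730 to 86695384, Olfr310 to Olfr292) and the fourth held Olfr520 and Olfr521 (7:99735145 to 99768130). The fifth was the largest, with 65 genes (7:106677534 to 108894420, Olfr693 to Olfr519), and the sixth held 19 (7:140161939 to 140705267, Olfr522 to Olfr541).

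The stretches below are 60 bases of coding sequence from the 9 members that reached an FPKM of 10 in a first library, followed by 2 that did so only in a repeat library. They were placed at a conserved motif, so they look alike by choice and do not show whether reads can be assigned to each gene. A 50-base word is any 50 bases in a row of a gene's longest GENCODE M21 transcript. The share of such words found in another Olfr transcript ran from 0% (Olfr309, Olfr481 and Olfr524) to 10.6% (Olfr467) over these genes. The capitals mark the 30 bases that encode the motif of 10 residues conserved through the receptor family at the cytoplasmic end of the third transmembrane segment. Sequences are from GENCODE M21 transcripts, 5′ to 3′ on the coding strand.
Olfr291: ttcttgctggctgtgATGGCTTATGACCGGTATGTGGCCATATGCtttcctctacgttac
Olfr309: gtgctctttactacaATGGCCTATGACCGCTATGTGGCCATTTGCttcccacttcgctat
Olfr467: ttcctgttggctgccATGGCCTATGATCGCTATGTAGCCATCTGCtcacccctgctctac
Olfr473: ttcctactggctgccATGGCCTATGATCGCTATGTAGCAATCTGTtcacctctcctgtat
Olfr481: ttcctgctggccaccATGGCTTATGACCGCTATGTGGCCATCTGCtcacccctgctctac
Olfr524: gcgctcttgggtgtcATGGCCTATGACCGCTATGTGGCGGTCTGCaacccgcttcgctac
Olfr527: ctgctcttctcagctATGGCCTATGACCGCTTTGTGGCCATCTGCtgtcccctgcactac
Olfr60: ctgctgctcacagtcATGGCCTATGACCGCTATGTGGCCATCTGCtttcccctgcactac
Olfr531: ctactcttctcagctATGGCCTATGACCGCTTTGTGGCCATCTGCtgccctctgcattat
Olfr518: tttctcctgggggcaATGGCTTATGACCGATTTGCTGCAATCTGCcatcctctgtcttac
Olfr536: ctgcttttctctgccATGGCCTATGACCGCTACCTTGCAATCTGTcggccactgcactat
The stretches lie at Olfr291 at chr7:84856707-84856766 (plus strand), Olfr309 at chr7:86306722-86306781 (minus strand), Olfr467 at chr7:107814922-107814981 (plus strand), Olfr473 at chr7:107933858-107933917 (plus strand), Olfr481 at chr7:108081132-108081191 (plus strand), Olfr524 at chr7:140202367-140202426 (minus strand), Olfr527 at chr7:140336191-140336250 (plus strand), Olfr60 at chr7:140345589-140345648 (minus strand), Olfr531 at chr7:140400661-140400720 (minus strand), Olfr518 at chr7:108881152-108881211 (minus strand), Olfr536 at chr7:140504065-140504124 (minus strand), in GRCm38. Each is inside the single coding exon of its gene. The encoded motif matched the family form in all 10 residues in 6 genes, in 9 residues in 4 genes (Olfr524, Olfr527, Olfr531 and Olfr536) and in 8 residues in Olfr518. Over the 55 pairs of these genes, whole coding sequences were 55.1% to 93.1% identical (median 58.5%). The nearest pair was Olfr527 and Olfr531, both of the sixth cluster, whose printed stretches differ at 5 of 60 bases. Olfr467 and Olfr481, of the fifth cluster, were 75.4% identical.

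Few members were detected at all. Of 111 members, 98 were at 0 in every first library, 13 were above 0 in at least 1, 10 reached an FPKM of 1, 9 reached 10 and 6 reached 100. As shares, 9.01% of members and 18% of all Olfr symbols reached 1, and 5.41% of members and 8.54% of all Olfr symbols reached 100. The class I array gave 8.59% and 4.69%, and the other chromosomes 20.5% and 9.51%. These shares follow the gene models as well as expression. Of the 10 members represented by a model that was assembled from reads and added to the annotation, 8 reached 1, against 2 of 101 members with an annotated model (Olfr473 and Olfr481). Assembled models exist because reads were seen, so this split was fixed by how the annotation was made. Annotated members had a median model length of 960 bases. For 76 of the 101, the GENCODE M21 gene reaches at least 500 bases past the 3′ end of the deposited model. A value of 0 in such a member therefore covers the coding part and not the transcript's end.

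**Figure D1:**
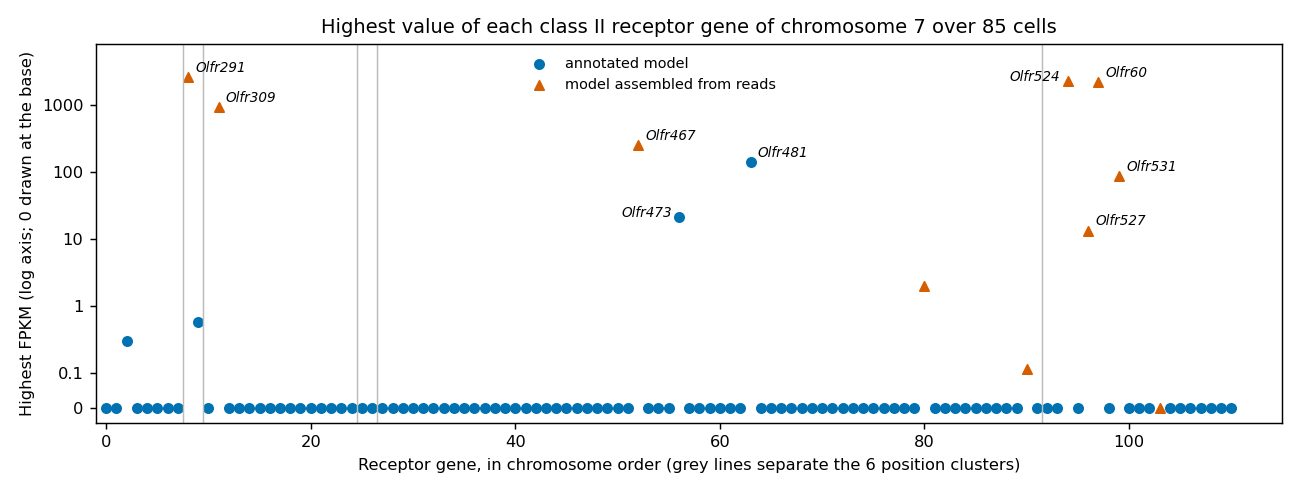
Highest FPKM of each of the 111 genes over the first libraries of 85 cells (vertical axis, logarithmic, with 0 drawn at the base), in chromosome order; grey lines separate the 6 clusters, circles are annotated models and triangles are models assembled from reads. The 9 named genes are those at 10 or more, and 98 genes lie on the line for 0.

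In 9435 pairs of a member and a cell, 73 values were above 0, 37 were at least 1, 10 were at least 10 and 6 were at least 100. The 6 high values came from 5 cells, and each of the 5 was led by a member, meaning that its highest receptor was one of these genes. Because every member was at 0 in most cells of every stage, the median of each gene in each stage was 0, and only the high cells are described further.

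Olfr291 had the highest value of the set. It reached an FPKM of 2559 in cell D199, a Late cell, which is about 58600 fragments on its model of 3471 bases (7:84853555 to 84859614, plus strand, 3 exons). It made up 99.6% of the Olfr FPKM of that cell, and the next receptor, Olfr860, was at 3.79. Over the 13 Late cells Olfr291 was lowest and median at 0, and D205 was the other cell above 0, at 5.23. It was at 1 or more in 2 Precursor cells (highest 6.13) and 6 Early cells (highest 10.7), and under 1 in every Progenitor and Mature cell. Its neighbour Olfr290 is 96.8% identical in coding sequence and was above 0 in 2 cells, D199 (0.570) and D200 (0.227), the cells where Olfr291 was highest. Reads of so near a copy can be placed on the wrong gene, so the values of Olfr290 are uncertain.

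Olfr309, in the third cluster (7:86304571 to 86313536, minus strand), reached 919 in D401, an Early cell. It held 90.1% of the Olfr FPKM there and was 11.4 times the next receptor, Olfr190, at 80.6. Of the other 26 cells of that stage, 8 had a value above 0, none at 1 or more. In the Late stage it was at 2.40 in D230. It was the only member of its cluster above 0, of 15.

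In the fifth cluster, 5 of 65 members were above 0. Olfr467 (7:107814560 to 107815572, plus strand) reached 247 in D411, an Early cell in which receptors were spread more evenly. It made up 27.9% of the Olfr FPKM of that cell. The next receptor, Olfr992, was at 130, and 10 receptors of the cell were at 10 or more. Olfr506, 798 kb from Olfr467, was at 1.999 in the same cell and under 1 in every other first library. Olfr481 (7:108080796 to 108081734, plus strand) reached 138 in D230, a Late cell, and was at 0 in the other 84 first libraries. Olfr473 (7:107933522 to 107934454, plus strand) reached 20.8 in D242, a Precursor, where it was the highest receptor and Olfr871 followed at 9.39. Olfr473 was also at 1.33 in D234, which is about 1.23 fragments. It is 93.1% identical to its neighbour Olfr472, which was at 0 in every first library.

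In the sixth cluster, 4 of 19 members were above 0. Olfr524 (7:140198423 to 140202800, minus strand) reached 2224 in D342, the only Mature cell led by a member. It made up 99.3% of the Olfr FPKM there, and Olfr1257 followed at 6.42. Among the 25 Mature cells, Olfr524 was at 0 in the lowest and the median cell, and 3 further cells lay at 2.86 (D316), 3.51 (D329) and 4.41 (D433). Olfr60 reached 2152 in D230, the Late cell that also carried Olfr481. It held 42.8% of the Olfr FPKM of D230 and was 2.75 times the next receptor, Olfr810, at 782. In D230, 27 receptors were at 1 or more and 18 at 10 or more. Olfr531 (7:140399194 to 140401044, minus strand) was at 85.7 and Olfr527 (7:140335843 to 140336820, plus strand) at 13.1 in D334, a Late cell led by Olfr285 of another chromosome at 1558. Both were at 0 in the other 84 first libraries. They lie 63.4 kb apart and are 93.1% identical in coding sequence, so the split of reads between them is uncertain. Of the 50-base words of their longest transcripts, 2.84% (Olfr527) and 2.33% (Olfr531) occur in another Olfr transcript. The share within the deposited models was not measured.

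The value of Olfr60 rests on part of the gene. The deposited annotation has a coding row for Olfr60 (7:140345052 to 140345987, minus strand) and an assembled row without strand (7:140343807 to 140344680). The coding row was at 0 in D230 and in its repeat, where 3 fragments would have given 2.36 and 3.50, and all signal fell on the assembled row. That row lies at the 3′ end of the GENCODE M21 gene, past the coding part. The authors' deposited table of receptor and cell pairs lists 134 pairs, 7 of them with a member: Olfr291, Olfr309, Olfr467, Olfr473, Olfr481, Olfr524 and Olfr531, each with the FPKM of the gene table. Olfr60 in D230 and Olfr527 in D334 are not among these pairs in the authors' deposited table.

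**Figure D2:**
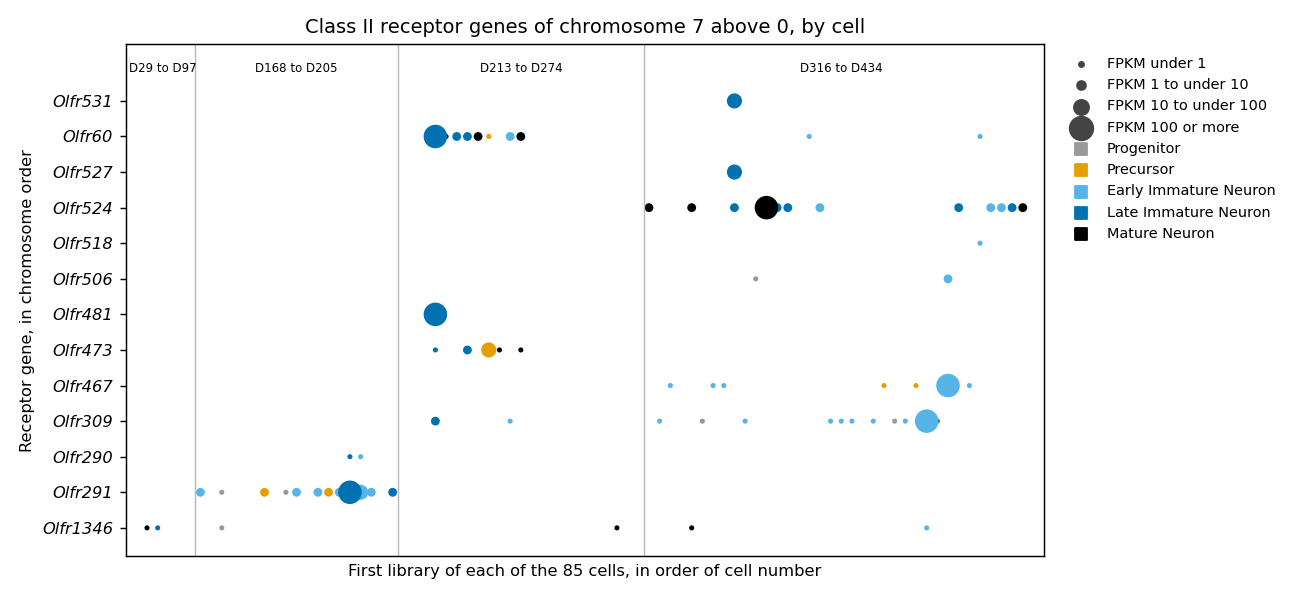
Each point is a gene above 0 in the first library of a cell; the 13 genes run in chromosome order on the vertical axis and the 85 cells in order of cell number on the horizontal axis, with point size for FPKM and colour for stage. Low values of Olfr291 and Olfr524 stay within the number range of the cell in which the gene was high, and 2 values of Olfr60, both under 1, lie outside it.

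By stage, the number of cells with a member at an FPKM of 1 or more was 0 of 11 Progenitor cells, which allows a share of up to 27.3% (3 cells of the 11), and 3 of 9 Precursor cells (33.3%, exact Clopper-Pearson 95% interval 7.49 to 70.1%). It was 12 of 27 Early cells (44.4%, 25.5 to 64.7%), 10 of 13 Late cells (76.9%, 46.2 to 94.96%) and 6 of 25 Mature cells (24%, 9.36 to 45.1%). The intervals cover counting error only, since PCR copies are not independent molecules and cells may share an animal. They describe these cells and are no test between stages. D233 (Late) and D240 (Mature) were counted only through the assembled row of Olfr60, at about 2.5 and 1.26 fragments. Both are below the limit of 3 fragments used for values of 0. Without assembled fragments outside the coding part, the counts were 11 of 27 Early, 9 of 13 Late and 4 of 25 Mature cells (16%). That alternative was chosen after seeing the data. At 100 or more, the counts were 0 in the first 2 stages, 2 Early cells (7.41%, 0.910 to 24.3%), 2 Late cells (15.4%, 1.92 to 45.4%) and 1 Mature cell (4%, 0.101 to 20.4%).

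The number of members seen followed the whole family in part. At 1 or more, no member was seen in a Progenitor cell, where 0.45% of all 1112 Olfr symbols were. In Precursor cells 2 members (1.8%) were seen beside 1.35% of all Olfr symbols. In Early cells 6 members (5.41%) were seen beside 11.2%, in Late cells 8 (7.21%) beside 6.03%, and in Mature cells 2 (1.8%) beside 7.01%. Of the 8 Late members, Olfr473 was counted only from D234, at about 1.23 fragments, below the limit of 3 fragments used for values of 0. The Mature members were Olfr524 and Olfr60. Of 61 cells whose highest receptor was at 100 or more, 5 were led by a member (8.20%, exact 95% interval 2.72 to 18.1%), while members are 9.98% of the Olfr symbols. One of the 5, D230, rests on the first library and on the assembled row of Olfr60. With repeat libraries, or without assembled fragments outside the coding part, 1 of 13 Late cells (7.69%) was led by a member in place of 2 (15.4%). The class I array, with 11.5% of the symbols, led 4 of the 61 (6.56%, 1.82 to 15.9%). The wide intervals include the share of symbols in both sets.

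Summed over members, the FPKM of a cell was 0 in 6 of 11 Progenitor cells, with a median of 0 and a highest value of 0.393. The Precursor median was 0.129 and the highest 21.3, in D242. The Early median was 0.541 (lowest 0, highest 919). The Late median was 1.501 (lowest 0, highest 2559), and the Mature median was 0 (highest 2224), with 15 of 25 cells at 0. Within cells D316 to D434 the order turned, with a median of 1.418 in 6 Late and 4.11 in 4 Mature cells. Within cells D213 to D274 it did not, with 5.03 in 4 Late and 0 in 16 Mature cells. The ranges of all neighbouring stages overlap. Among cells whose highest receptor was at 100 or more, members held a median of 0.0563% of the Olfr FPKM in the Early stage, 0.0776% in the Late stage and 0% in the Mature stage, with highest shares of 90.1%, 99.6% and 99.3%.

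**Figure D3:**
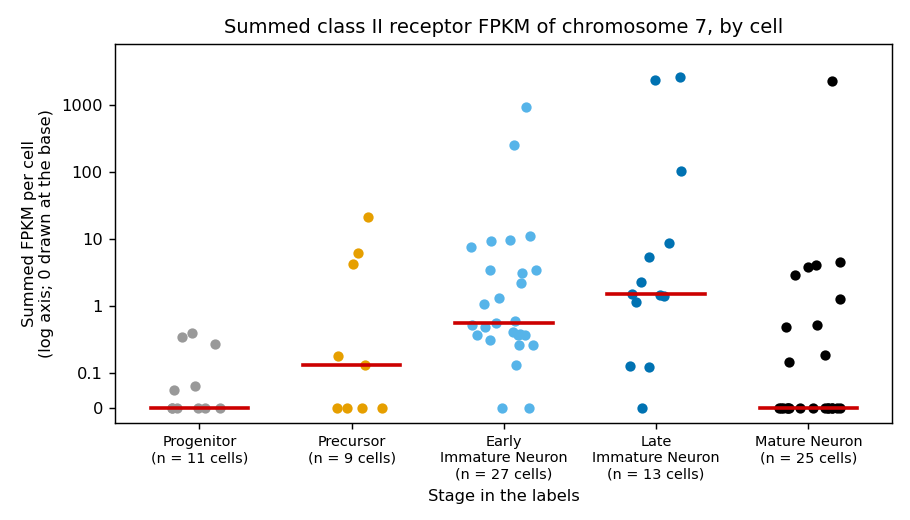
Summed FPKM of the 111 genes in the first library of each cell (vertical axis, logarithmic, with 0 drawn at the base) by stage; each point is a cell and red lines are medians. Values above 100 occur in 2 Early, 3 Late and 1 Mature cells.

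Most of the low values belonged to 3 genes and to narrow ranges of cell numbers. The cell numbers fall into 4 runs, of which the first is D29 to D97 and the last D316 to D434; D168 to D205 and D213 to D274 lie between. The labels do not say what a number stands for, and the step from D205 to D213 is small. Of 37 values at 1 or more, 10 were the highest of their gene. Of the other 27, 26 lay in the run that also held that highest value. Olfr291 was at 1 or more in 10 of 19 cells of D168 to D205 and at 0 in all 66 other cells. Olfr524 was at 1 or more in 12 of 37 cells of D316 to D434 and at 0 in the other 48. Olfr60 was at 1 or more in 6 of 23 cells of D213 to D274 and at most 0.258 in the other 62. The exception among the 27 was Olfr309 in D230.

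Below the high cell, the values of these genes were a small fraction of it. The 9 lower values of Olfr291 were 3.35 to 10.7 (median 6.13), 240 to 765 times below D199, and corresponded to 69 to 210 fragments. The 11 lower values of Olfr524 were 1.05 to 4.41 (median 1.96), 504 to 2120 times below D342, with 28.2 to 87.5 fragments. The 5 lower values of Olfr60 were 1.24 to 7.24 (median 2.66), with 1.26 to 6.28 fragments. Of all 27 member values from 1 to under 10, 24 (88.9%) belonged to a gene that was at least 100 times higher in another first library of the run. For all Olfr genes this was 76.5% of such values. In 23 of the 31 cells with a member at 1 or more, the only such members were Olfr291, Olfr524 or Olfr60 at values under 11.

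The stages are spread unevenly over these runs, and the counts by stage move with them. Run D168 to D205 holds 8 Progenitor, 3 Precursor, 6 Early and 2 Late cells and no Mature cell, while D213 to D274 holds 16 of the 25 Mature cells. A member was at 1 or more in 0 of 6 cells of D29 to D97, 10 of 19 of D168 to D205, 7 of 23 of D213 to D274 and 14 of 37 of D316 to D434. Within D316 to D434, the only run with cells of all 5 stages, the counts were 0 of 3 Progenitor, 0 of 5 Precursor, 5 of 19 Early, 5 of 6 Late and 4 of 4 Mature cells. Within D213 to D274 they were 3 of 4 Late and 2 of 16 Mature cells. The share was thus lower in Mature than in Late cells over all runs and in D213 to D274, and not in D316 to D434. D29 to D97 had 0 of 1 Late and 0 of 5 Mature cells. At 10 or more, the counts over all cells were 1 Precursor, 3 Early, 3 Late and 1 Mature cell. The part of the cell number in the counts at 1 was not tested further.

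Members seen together in a cell were few. Of the 31 cells with a member at 1 or more, 27 had 1, 2 had 2 and 2 had 3, which gave 8 pairs of members. In 4 pairs the genes lay within 1 Mb of each other: Olfr467 and Olfr506 in D411, and the 3 pairs of Olfr524 (1.96), Olfr527 and Olfr531 in D334, at 63.4 to 201 kb. At 10 or more, Olfr527 and Olfr531 were the only pair within that distance. The 3 members of D230, Olfr60, Olfr481 and Olfr309, lay 21776 to 54039 kb apart.

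Technical repeats give the error of single values. In D230, Olfr60 was at 2152 in the first library and 1232 in the repeat. Olfr481 was at 138 in the first and 0 in the repeat, where 3 fragments would have given 3.49, so that its presence in D230 rests on 1 library. The leading receptor of D230 was Olfr60 in the first library and Olfr810, at 1440, in the repeat. Olfr291 was at 10.7 in D200 and 3.35 in D187, and at 0 in both repeats, with 3-fragment limits of 0.206 and 0.160. In the opposite direction, Olfr518 was at 0 in the first library of D200 and at 271 in its repeat, and Olfr536 was at 0 in D244 and at 14.5 in its repeat. The 271 of Olfr518 fell on an assembled row (7:108878415 to 108880053) outside the coding row. That row also lies outside the GENCODE M21 gene, past its 3′ end at 108880188 (minus strand). The coding row (7:108880603 to 108881784) was at 19.1 in the repeat of D200. Over the 8 repeat libraries, Olfr60 was above 0 in 7 and Olfr518 in 6. Over the 85 first libraries, Olfr60 was above 0 in 10 and Olfr518 in 1. Among the cells sequenced again, D230, D233 and D244 had Olfr60 above 0 in the first library. None of the other 4 cells with a member at 100 or more was sequenced again.

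**Figure D4:**
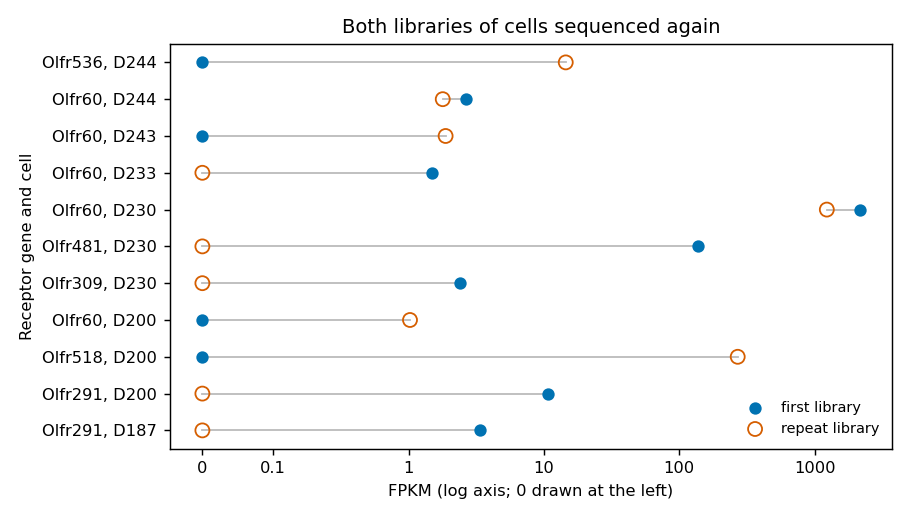
FPKM of genes at 1 or more in either library of a cell that was sequenced again (horizontal axis, logarithmic, with 0 drawn at the left); filled points are first libraries and open points repeats. Of the 11 gene and cell combinations, Olfr60 in D230 and in D244 were above 0 in both libraries.

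Neuronal markers varied among the cells led by members. Omp, the olfactory marker protein of mature neurons, was at 0 in D411 and 277 in D401 (Early), 3428 in D199 and 3681 in D230 (Late) and 6612 in D342 (Mature). Gap43, a growth cone protein of immature neurons, was at 51.4, 761, 198.8, 0.561 and 0.557 in the same order. Gap43 was thus higher in the Late cell D199 than in the Early cell D411, as was Dcx (56.8 and 0.09498). The immature neuron markers Gng8, Stmn2, Dpysl5 and Ncam1 went the other way. These were at 1.38, 55.25, 3.16 and 4.98 in D199, and at 269.98, 475, 51.4 and 45.03 in D411. In D334, Omp was at 4584 and Gap43 at 1.81, and in the Precursor D242 Omp was at 378.5 and Gap43 at 0. The stages may have been set on the same transcriptomes, so these values do not test the labels. Of the dorsal zone markers, Acsm4 was at 549 and Nqo1 at 30.8 in D230, and at 1.56 and 1192 in its repeat, so that neither level held between libraries. Both were under 1 in D199, D401, D411, D334 and D342. Markers of the ventral zone were present in cells with and without dorsal ones. In D230, Nfix was at 34.3, Nfib at 29.3 and Ncam2 at 0.804, and in D199 they were at 52.9, 2.60 and 40.4. In D334, Ncam2 was at 35.5, Nfib at 34.3 and Nfix at 0.325. In D411, Nfib was at 36.4, Ncam2 at 1.23 and Nfix at 0. In D401, Nfix was at 5.33, Nfib at 0.169 and Ncam2 at 0.029. All listed ventral markers were under 1 in D342, where Ncam2 was highest at 0.321.

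Markers of supporting (sustentacular) cells were present in some of these libraries. Of 8 such markers, D230 had 4 at 100 or more, with Cbr2 at 3764 and Cyp2g1 at 280, and D242 had 3, with Cbr2 at 1071. D199 had Cbr2 at 123 and Sec14l3 at 50.5, and the other 6 were under 1. In D342, D401 and D411 no sustentacular marker reached 1. The summed level of the list ran from 0.458 to 5033 (median 16.3) over Late cells, 0.106 to 1542 (median 1.88) over Precursor cells and 0 to 2870 (median 312) over Mature cells. Blood markers S100a8 and S100a9 were at 0 in all of these cells. With the 20 cells left out that had 2 or more markers of another cell type at 100 or more, the cells with a member at 100 or more were 2 of 25 Early, 1 of 12 Late and 1 of 18 Mature cells. The part of these markers in the values of Olfr60, Olfr481 and Olfr473 was not tested.

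Genes that serve receptor expression and odorant signalling were compared between stages as the difference of mean log2(FPKM + 1), called at 1 or more. From Precursor to Early, 25 of 30 listed genes were measured, 19 higher and 3 lower, with a median difference of 2.63 beside −0.26 over 4006 genes, of which 22% were higher and 28% lower. Rtp1, a chaperone that carries receptors to the surface, went from 1.71 ± 2.34 (SD over 9 cells) to 6.56 ± 2.39 (27 cells). Ebf4, a transcription factor of the family that binds receptor promoters, was higher by 4.48, and Gng13, a G protein subunit of the cilia, by 4.19. Lhx2, a homeodomain factor needed for class II receptor expression, was at 8.64 ± 1.78 and then 7.05 ± 2.48, and Kdm1a, the histone demethylase active at the onset of receptor choice, differed by −2.002. From Early to Mature, 27 were measured, 15 higher and 5 lower, with a median of 1.57 beside −0.31 over 3522 genes, of which 20.5% were higher and 30.6% lower. The channel subunit Cnga4 was higher by 6.04 and the adenylyl cyclase Adcy3 by 4.74, while Gap43 differed by −7.39, the immature G protein subunit Gng8 by −4.39 and Kdm1a by −2.51. SDs are spreads over cells, and no test was made.

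Start regions were available from RefSeq (GRCm38.p6) for 97 of the 111 members, as 250 bases before to 50 after the annotated start. In 81 of these 97 the start lay within 60 bases of the GENCODE M21 coding start, so most windows do not cover the start of the transcript. On either strand, CCCNNGGGA, the core bound by EBF factors, was found in 6.19% of member windows, 2.53% of all Olfr windows and 6.56% of the windows of all genes. TAATTA, a homeodomain core, was found in 12.4%, 18.6% and 5.29%. Of the members named above with a window, Olfr481 and Olfr518 held TAATTA and Olfr536 held CCCNNGGGA. A match is a description of the letters and not of binding.

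Depth was estimated from 2167 single-exon genes, whose lowest FPKM values are multiples of 1 fragment. An FPKM of 1 on 1 kb corresponded to 0.556 to 9.83 fragments (median 5.65) over the 85 first libraries, and stage medians ran from 4.19 in Mature to 6.85 in Precursor cells. The FPKM values of D199 summed to 528355 and those of D230 to 3575970, so a level in FPKM is not the same share of a library in each. The Olfr share of a cell, given above, does not depend on that scale.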

How the data were processed

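RNA sequencing of 93 libraries from 85 hand-picked single cells was analysed from the deposited tables. The authors deposited FPKM per gene for all libraries, and all columns were used. Per the submitters' processing notes, the tools were Cufflinks 2.2.1, TopHat2 2.0.14, cutadapt 1.2.1 with Trim Galore, and CASAVA 1.8.2, on the mm10 build. The sources used here do not give how each was set or whether libraries were scaled. The authors' deposited table of receptor and cell pairs repeats some FPKM and holds a pseudotime score, which was not used. Other deposited fields used were the positions of gene models, annotated or assembled.

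The members and gene lists were chosen with earlier results of these data known. First libraries were used, with the row of highest FPKM per symbol. Levels of 1, 10 and 100 were set as thresholds. Intervals of shares above 0 are exact 95% Clopper-Pearson intervals, and a share of 0 has a limit of 3 cells. Differences between stages used a pseudocount of 1 and genes that reached an FPKM of 1 in 50% or more of the cells of one of the stages. No p-value was computed, because a stage is 1 sample. The tables hold no read counts, so fragments were estimated from the spacing of low values of 2167 single-exon genes of 800 to 4000 bases (tolerance 5%, at least 5 genes), and a limit of 3 fragments was used for values of 0. Named genes were members at 100 or more in a first library, those at 10 or more, those at 1 or more in 3 or more cells, the second receptor of each cell led by a member, and Omp and Gap43. Olfr290, Olfr503, Olfr504, Olfr506, Olfr518, Olfr536, the markers, the cells D334 and D242 and the genes named from the transduction list were chosen after their values were seen. Coding sequences were compared by edit distance over the longer sequence (edlib 1.3.9.post1, Biopython 1.88). Python 3.11.15, numpy 2.4.6, pandas 2.3.3, scipy 1.17.1 and matplotlib 3.10.9 were used. The stage difference was tested on simulated data.

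Alternatives were another detection level, the sum of rows per symbol, annotated rows only, repeat in place of first libraries, cells D316 to D434 only, cells without markers of another cell type, protein coding members only, another cluster gap, pseudocount and filter. Leaving out assembled fragments outside the coding part was chosen after seeing the data.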

Additional observations from a re-analysis of the deposited data

Results flagged for a closer look

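In the Precursor stage, with 9 cells, D242 stood apart from the other cells in the summed FPKM of the members (21.3), in Olfr473 (20.8) and in Omp (378.5), and D178 stood apart in Gap43 (706). In each case the gap to the next cell was above Dixon's 95% critical value as a share of the whole range. Dixon's value assumes normally distributed data, so a chance rate of 5% cannot be given for the 5 sets of values looked at. Olfr473 was above 0 in 1 of the 9 cells, so its gap is the whole range and a flag was certain. The summed FPKM of D242 was mostly Olfr473, so its flag is not separate from that of Olfr473. The Precursor median of Omp was 0. D242 also had 3 sustentacular markers at 100 or more. Their part in these values was not tested.

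In repeat libraries, which entered no comparison of stages, members appeared that were at 0 in the first library of the same cell and above the level of 3 fragments in the repeat. Olfr518 was at 271 in the repeat of D200 (3-fragment level 0.437) and at 0.794 in that of D233 (0.748). Olfr536 was at 14.5 in the repeat of D244 (0.482). Olfr60 was at 1.03 in the repeat of D200 (0.819) and at 1.88 in that of D243 (1.52). Olfr1346, of the first cluster, was at 0.861 in the repeat of D250 (0.752). The 2 highest of these are on the scale of the values that made a receptor a leading one in other cells, or of second receptors. The 271 of Olfr518, however, fell on an assembled row outside the coding part, and its coding row was at 19.1. The other values are within 1.5 times the 3-fragment level.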

How the results depend on the processing

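Of 246 alternative values of 37 results, 33 moved. The others stayed within counting error, within 1 SD over cells or, for counts of genes, within 1.5 times. Taking protein coding members only could move nothing, since all 111 members are protein coding. For summed medians of Early, Late and Mature cells, the SD includes the high cells and is wide. The Mature median of 4.11 in cells D316 to D434, beside 0 over all cells, was thus not counted as moved. The number of values that stayed is no measure of stability. With annotated rows only, cells with a member at 1 or more were 0% of Early, 15.4% of Late and 0% of Mature cells. Cells at 100 or more and cells led by a member were then 0% in the Early and Mature stages, and members seen were 1 in Precursor, 0 in Early, 2 in Late and 0 in Mature cells; this alternative drops the assembled models by construction. At an FPKM of 10, cells with a member were 11.1%, 23.1% and 4% of Early, Late and Mature cells, members seen were 1, 3, 5 and 1 from Precursor to Mature, and 1 pair within 1 Mb was left. In cells D316 to D434 only, cells with a member were 0% in Precursor and 100% in Mature cells. Cells at 100 or more and led cells were 0% in Late and 25% in Mature cells, and members seen were 0 in Precursor, 3 in Late and 1 in Mature cells. The summed median of Progenitor cells was 0.269 there and with cells bearing markers of another type left out; the latter also left 1 member in Precursor cells. Without fragments outside the coding part (chosen after seeing the data), 1 member was seen in Mature cells, and 7.69% of Late cells were led by a member, as with repeat libraries. Leaving out values under 1% of the highest of the gene in the run left 3 of 27 low values. A gap of 0.5 Mb gave 7 clusters in place of 6. The cause of these moves was not tested beyond what each alternative removes. No paired analysis was possible because the result comes from no test and a cell belongs to 1 stage. Depth limits values of 0 to about 3 fragments, and most 0 values cover a coding-only model.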
